A study of Mus musculus with 11 samples.

Results

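The transcription factors that give the small intestinal epithelium its identity were compared between 5-month-old Villin-Gremlin mice and wild type mice, both on the C57Bl/6J strain. The set comprised 9 genes, namely the caudal homeobox genes Cdx1 and Cdx2, the nuclear receptors Hnf4a and Hnf4g, the GATA factors Gata4 and Gata6, the Kruppel-like factors Klf4 and Klf5, and the ETS factor Elf3. They were chosen by gene symbol, as every probe whose platform annotation gave one of these symbols, which was 16 of the 45281 probes and 9 of the 19057 named genes on the array. The study hybridised total RNA from isolated small intestinal villi to Illumina bead arrays. The Villin-Gremlin group had 5 arrays and the wild type group had 6. By its name the transgene places Gremlin, a secreted antagonist of bone morphogenetic protein (BMP) ligands, under the promoter of Villin, which is active throughout the intestinal epithelium. The design text gives 6 mice in each group, but no label says that each array held a separate mouse. The p-values therefore measure the spread between these arrays, which may in part be technical.

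In the mouse, Cdx2 sets the intestinal fate of the gut endoderm and, together with Cdx1, keeps the adult epithelium from taking on gastric features. HNF4A and HNF4G are partly redundant activators of brush border, lipid handling and other absorptive genes of the enterocyte, GATA4 separates jejunum from ileum, and GATA6 acts with it and also on its own in the distal intestine. KLF4 is made mainly in differentiated cells of the villus and is needed for goblet cell maturation in the colon, KLF5 is made mainly in dividing cells of the crypt, and ELF3 is an epithelial ETS factor needed for enterocyte and goblet cell differentiation. BMP ligands come largely from the stroma around the villus and act on the epithelium as it matures, which is the signal that Gremlin blocks.

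A probe was taken as measured where its detection p was under 0.01 on 5 or more of the 11 arrays, which 14203 probes and 8234 named genes met. All 9 factors were measured, through 15 of their 16 probes. Values below are background-corrected, quantile-normalised log2 signals, and a change is Villin-Gremlin minus wild type from a limma fit over the 14203 probes, given with its standard error and its Benjamini-Hochberg adjusted p over all of them. A gene was read through its measured probe with the highest mean over the 11 arrays. The offset added before the log understates the change of dim probes, and signals of different probes cannot be ranked against each other.

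The genotype labels matched the transgene. The Grem1 probe averaged 13.95 ± 0.14 (SD, n = 5) with the transgene and 6.10 ± 1.51 (SD, n = 6) without it. It was detected on 2 of 6 wild type arrays, so the wild type mean rests mostly on signals at background. Wild type array 5 was the highest of its group, at 8.99. The median raw signal per array lay between 157 and 207, and between 13536 and 14808 probes were detected on each array. The first principal component carried 49.7% of the variance and separated the genotypes, while on the second component Villin-Gremlin array 5 and wild type array 1 stood away from the other arrays. Absorptive enterocyte markers were bright in both groups, with a mean over the 10 measured of 12 markers of 13.45 to 13.79 in Villin-Gremlin and 14.35 to 14.49 in wild type arrays, although the probes of Fabp1 and Fabp2 were not measured. Markers of T cells and intraepithelial lymphocytes were also present, at a mean over the 10 measured of 15 markers of 8.07 to 9.05 in Villin-Gremlin and 10.04 to 10.96 in wild type arrays.

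Elf3 and Cdx1 rose in Villin-Gremlin villi, Klf4, Gata6 and Hnf4g fell, and Cdx2, Hnf4a, Gata4 and Klf5 did not pass the test. Klf4 changed the most, at 3.02-fold lower, and the other called changes lay between 1.37-fold and 1.81-fold. The 5 called genes of 9 compare with 32.5% of the 8234 measured genes, of which 17.2% were higher and 15.4% lower in Villin-Gremlin villi, so calls were common on this array, and 9 genes are few to set against those shares. At the level of probes, 10 of the 15 measured probes were called, against 30.8% of all measured probes. Probes of the same gene are repeated readings of it, so the 15 probes are not separate units. The arrays of the genotypes did not overlap for 3 of the 9 genes, Elf3, Gata6 and Cdx1, against 20.5% of all genes, and for 5 of the 15 probes, against 18.9% of all probes. Only 3.72% of the measured genes had a larger change in either direction than Klf4, while for Elf3 this share was 13.9%, for Hnf4g 20.9%, for Cdx1 27.1% and for Gata6 34.7%.

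**Figure D1:**
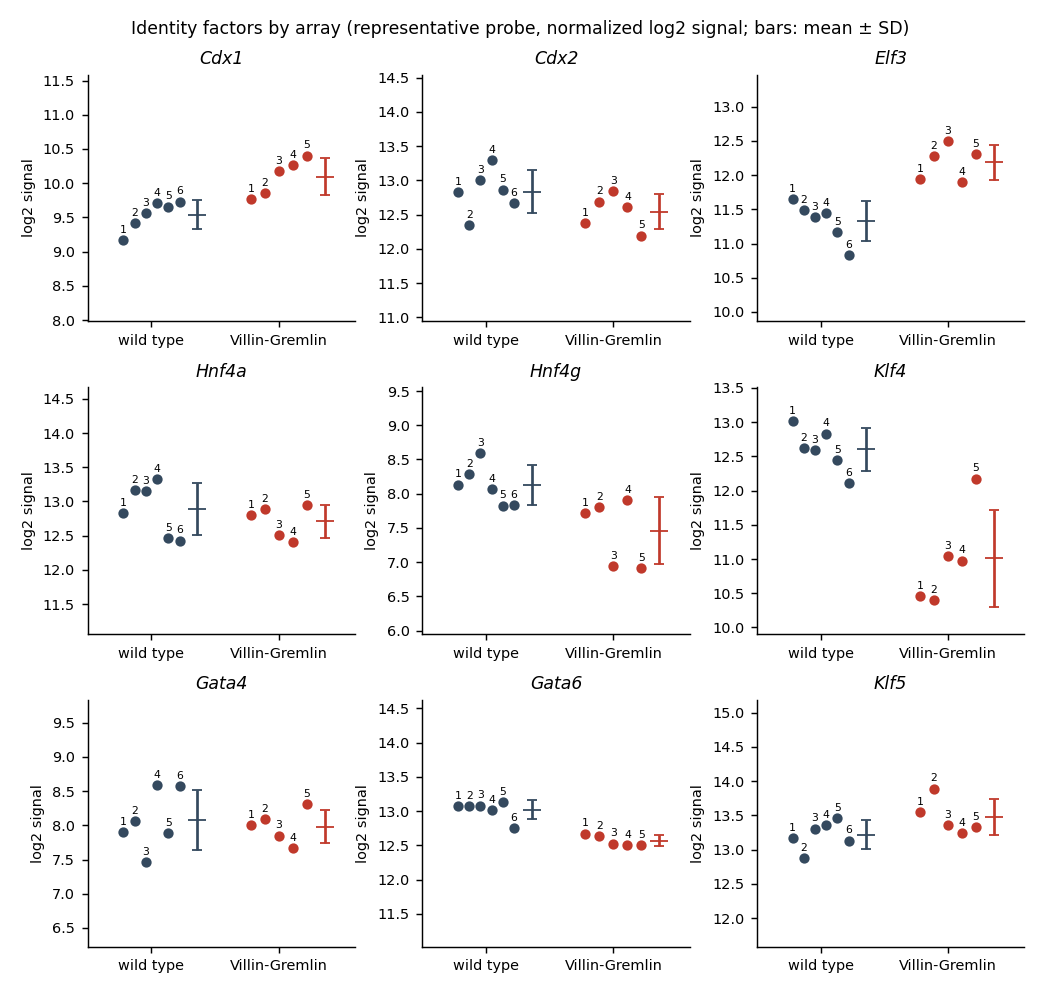
Background-corrected log2 signal of the probe that represents each of the 9 factors, 1 panel per gene, with each point 1 array (6 wild type, 5 Villin-Gremlin) numbered by its replicate and bars at each group's mean ± SD. Klf4 shows the widest gap between the group means, with Villin-Gremlin array 5 at 12.17 inside the wild type range of 12.11 to 13.02, while Elf3, Gata6 and Cdx1 show no overlap.

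Klf4, the Kruppel-like factor of differentiated villus cells, was lower in Villin-Gremlin villi on each of its 3 probes. Its brightest probe, ILMN_2999439, read 10.46, 10.40, 11.04, 10.98 and 12.17 on Villin-Gremlin arrays 1 to 5. In wild type villi the same probe had a lowest value of 12.11, a median of 12.60 and a highest value of 13.02. Villin-Gremlin array 5, one of the arrays that lay apart, reached the wild type range, and the other 4 lay more than 1 log2 unit below it. The change was -1.59 ± 0.28 (limma, adjusted p = 9.76e-04), or 3.02-fold. Without Villin-Gremlin array 5 it was -1.88, and without that array and wild type array 1 it was -1.80 (adjusted p = 8.09e-05).

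The other Klf4 probes showed the same pattern at lower signals. Probe ILMN_1241903 ranged from 9.06 to 11.32 in Villin-Gremlin and from 11.36 to 12.46 in wild type villi, a change of -1.92 ± 0.35 (limma, adjusted p = 0.00117). Probe ILMN_1221264 ranged from 7.42 to 10.01 and from 10.22 to 10.96, a change of -2.10 ± 0.36 (limma, adjusted p = 7.19e-04). On both of them the groups did not overlap, and Villin-Gremlin array 5 was again the highest of its group. Across the 11 arrays the probes correlated with each other at a Pearson's r of about 0.99, which is a description of probes to 1 transcript and mostly of the difference between the groups. The change of ILMN_1221264 was larger than that of the brightest probe by 0.51 (two-sided exact permutation test, p = 0.00216, adjusted over 8 probe pairs 0.0173), so the size of the fall depends on the probe while its direction does not.

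Klf5, the Kruppel-like factor of the crypt, differed little. Probe ILMN_1253387 read 13.55, 13.89, 13.36, 13.25 and 13.33 on the 5 Villin-Gremlin arrays, and in wild type villi its lowest, median and highest values were 12.87, 13.24 and 13.46. The groups overlapped, and the change of 0.26 ± 0.15 did not pass the test (limma, adjusted p = 0.212), with a 95% interval from -0.06 to 0.58. The other Klf5 probe, ILMN_2433293, stayed at background on all 11 arrays and gives no value for either group. The difference between the change of Klf4 and that of Klf5 was -1.85 on the log2 scale (two-sided exact permutation test, p = 0.00216, the smallest that 462 splits of 11 arrays into 5 and 6 can give, adjusted over 4 pairs of related factors 0.00433).

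Elf3, the epithelial ETS factor, was higher in Villin-Gremlin villi on each of its 3 probes. Its brightest probe, ILMN_2850233, read 11.95, 12.28, 12.50, 11.89 and 12.31 on Villin-Gremlin arrays 1 to 5. In wild type villi its lowest, median and highest values were 10.84, 11.42 and 11.65, so every Villin-Gremlin array lay above every wild type array. The change was 0.85 ± 0.17 (limma, adjusted p = 0.00186), or 1.81-fold. Probe ILMN_2692072 changed by 0.79 ± 0.19 (limma, adjusted p = 0.00804) and probe ILMN_2621659 by 0.78 ± 0.25 (limma, adjusted p = 0.0293), and on both the groups overlapped because wild type array 1, which lay apart, had the highest wild type signal. The changes of the Elf3 probes differed from each other by at most 0.0745 (two-sided exact permutation tests, adjusted p from 0.658 to 0.965). Without Villin-Gremlin array 5 and wild type array 1 the brightest probe changed by 0.89.

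**Figure D2:**
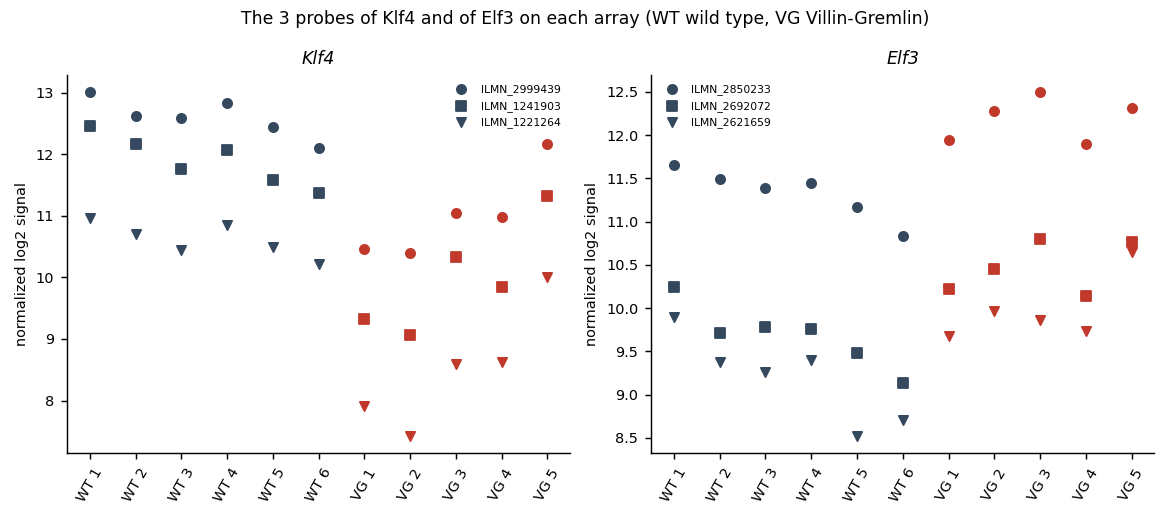
Background-corrected log2 signal of the 3 measured Klf4 probes and the 3 measured Elf3 probes on each of the 11 arrays, with wild type and Villin-Gremlin arrays in different colours and each probe in its own marker. All 3 Klf4 probes are lower on Villin-Gremlin arrays on average, with array 5 the highest of that group and, on the brightest probe, above wild type array 6, and all 3 Elf3 probes are higher on average.

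The core promoters of Klf4 and Elf3, the members that changed the most in each direction, are shown beside that of Cdx2, which did not pass the test. Each runs from 250 bases before to 50 bases after the gene's start in RefSeq on GRCm38.p6, and 4 of the 9 members matched an entry, the fourth being Hnf4a. Capitals mark the letters of short motifs that were searched on both strands, namely TTTAT for CDX factors, AGATAA for GATA factors, CAAAGT for HNF4, CACCC for Kruppel-like factors, GGAAGT for ETS factors and GGCGCC for the BMP effectors SMAD1 and SMAD5.
Klf4, chr4:55532426-55532725, minus strand: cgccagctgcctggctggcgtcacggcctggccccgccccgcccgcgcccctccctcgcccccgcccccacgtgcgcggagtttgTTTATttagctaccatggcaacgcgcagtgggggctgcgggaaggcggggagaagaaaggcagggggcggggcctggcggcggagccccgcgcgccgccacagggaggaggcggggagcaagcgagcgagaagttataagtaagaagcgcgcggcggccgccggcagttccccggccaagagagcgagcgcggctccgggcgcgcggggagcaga
Elf3, chr1:135258423-135258722, minus strand: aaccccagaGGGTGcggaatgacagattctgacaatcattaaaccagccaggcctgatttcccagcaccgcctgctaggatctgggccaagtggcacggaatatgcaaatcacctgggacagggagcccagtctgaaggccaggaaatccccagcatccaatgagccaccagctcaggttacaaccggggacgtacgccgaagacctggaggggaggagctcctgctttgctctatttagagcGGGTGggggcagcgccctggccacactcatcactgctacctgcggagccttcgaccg
Cdx2, chr5:147307200-147307499, minus strand: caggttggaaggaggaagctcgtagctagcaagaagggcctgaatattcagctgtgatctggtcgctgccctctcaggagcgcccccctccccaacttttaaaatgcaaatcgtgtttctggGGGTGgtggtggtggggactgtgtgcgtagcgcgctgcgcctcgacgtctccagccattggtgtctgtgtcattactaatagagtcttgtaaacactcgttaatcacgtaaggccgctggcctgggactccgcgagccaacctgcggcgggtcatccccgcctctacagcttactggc

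The Klf4 promoter held 1 TTTAT and none of the other motifs, and 74.3% of its bases were G or C. The Elf3 promoter held 2 copies of CACCC, both on the opposite strand as GGGTG, and the Cdx2 promoter held 1, with a G and C content of 59.0% and 57.3%. Such short words are common: among 32851 mouse promoters of the same length, TTTAT occurred in 40.0%, AGATAA in 11.2%, CAAAGT in 14.4%, CACCC in 57.5%, GGAAGT in 23.8% and GGCGCC in 11.9%. A match describes the letters of this window and no binding was measured, and the absence of a match says only that these letters are not in the window.

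Cdx1, the more crypt-restricted of the caudal factors, rose in Villin-Gremlin villi. Probe ILMN_2725801 read 9.77, 9.85, 10.17, 10.27 and 10.40 on the 5 Villin-Gremlin arrays, against a lowest, median and highest wild type value of 9.17, 9.61 and 9.73. The groups did not overlap, but they came within 0.1 of each other. The change was 0.55 ± 0.15 (limma, adjusted p = 0.0146), or 1.47-fold. The second probe, ILMN_2863641, read 10.14, 10.59, 9.30, 10.29 and 9.48 on Villin-Gremlin arrays and 8.73 to 9.62 on wild type arrays, so that arrays 3 and 5 lay inside the wild type range, and its change was 0.74 ± 0.24 (limma, adjusted p = 0.0348). The probes gave the same direction but followed each other loosely over the arrays, at a Pearson's r of 0.41. Without Villin-Gremlin array 5 and wild type array 1 the first probe changed by 0.40 and no longer passed (limma, adjusted p = 0.0535), and with median scaling over all probes of the array, chosen after seeing the data, it changed by 0.43 (adjusted p = 0.0824).

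Cdx2, the caudal factor that sets intestinal fate, did not pass the test. Its only probe read 12.37, 12.69, 12.84, 12.61 and 12.19 on Villin-Gremlin arrays, and its lowest, median and highest wild type values were 12.35, 12.85 and 13.30. The change was -0.30 ± 0.17 (limma, adjusted p = 0.218), with a 95% interval from -0.67 to 0.08, so a moderate fall and almost no change both lie within it. The related genes did differ from each other: the change of Cdx1 exceeded that of Cdx2 by 0.85 (two-sided exact permutation test, p = 0.00216, adjusted p = 0.00433), and the Cdx1 to Cdx2 signal ratio of every Villin-Gremlin array lay above that of every wild type array. Without Villin-Gremlin array 5 and wild type array 1 this difference was 0.61 (exact permutation test, adjusted p = 0.0476).

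Hnf4g, the HNF4 paralog of the gut, had a dim probe that fell in Villin-Gremlin villi. It read 7.72, 7.81, 6.94, 7.90 and 6.91 on the 5 arrays, against a lowest, median and highest wild type value of 7.82, 8.10 and 8.60. The groups overlapped by less than 0.1 log2 unit, with arrays 3 and 5 well below the rest. The change was -0.67 ± 0.22 (limma, adjusted p = 0.0332), or 1.59-fold. The call was lost on leaving out Villin-Gremlin array 3, with a change of -0.54 (adjusted p = 0.0872), array 5, with -0.53 (adjusted p = 0.0768), or any 1 of wild type arrays 2, 3 and 4, with -0.63, -0.57 and -0.68. It was also lost without Villin-Gremlin array 5 and wild type array 1 together, with -0.53 (adjusted p = 0.101).

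Hnf4a, the HNF4 factor made also in liver and colon, stayed bright in both groups. Its probe read 12.80, 12.89, 12.51, 12.40 and 12.94 on Villin-Gremlin arrays and 12.43, 12.99 and 13.33 at the lowest, median and highest in wild type villi. Wild type arrays 2, 3 and 4 lay above every Villin-Gremlin array and the other 3 within the Villin-Gremlin range, and the change of -0.18 ± 0.19 did not pass (limma, adjusted p = 0.496), with a 95% interval from -0.59 to 0.22. The changes of Hnf4a and Hnf4g differed by 0.48, which did not pass the exact permutation test (p = 0.0974, adjusted p = 0.130). Without Villin-Gremlin array 4 that difference was 0.67 (exact permutation test, adjusted p = 0.0254).

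Gata6, the GATA factor found along the whole intestine, fell slightly and evenly on its bright probe. Probe ILMN_2868133 read 12.67, 12.63, 12.52, 12.50 and 12.51 on Villin-Gremlin arrays, against a lowest, median and highest wild type value of 12.75, 13.08 and 13.14. No Villin-Gremlin array reached a wild type array, and wild type array 6 was the lowest of its group. The change was -0.45 ± 0.11 (limma, adjusted p = 0.00677), or 1.37-fold. The second probe, ILMN_1255968, ranged from 6.86 to 7.62 in Villin-Gremlin and from 6.87 to 7.85 in wild type villi, a change of -0.13 ± 0.20 that did not pass (limma, adjusted p = 0.662). The changes of the probes differed by -0.32 (two-sided exact permutation test, p = 0.167, adjusted p = 0.346), and the mean of both probes changed by -0.29 and did not pass (limma over genes, adjusted p = 0.108).

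Gata4, the GATA factor of the proximal intestine, did not pass the test. Its probe read 8.0, 8.09, 7.85, 7.66 and 8.31 on Villin-Gremlin arrays and 7.47, 7.98 and 8.58 at the lowest, median and highest in wild type villi. The Villin-Gremlin values lay inside the wild type range, and the change was -0.10 ± 0.20 (limma, adjusted p = 0.758), with a 95% interval from -0.54 to 0.34. The changes of Gata4 and Gata6 differed by 0.36, which did not pass the exact permutation test (p = 0.208, adjusted p = 0.208). Gata5, the remaining intestinal GATA factor, fell by 0.75 ± 0.20 on the log2 scale (limma, adjusted p = 0.0134), with Villin-Gremlin array 4 at 9.91 inside the wild type range of 9.54 to 10.58.

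**Figure D3:**
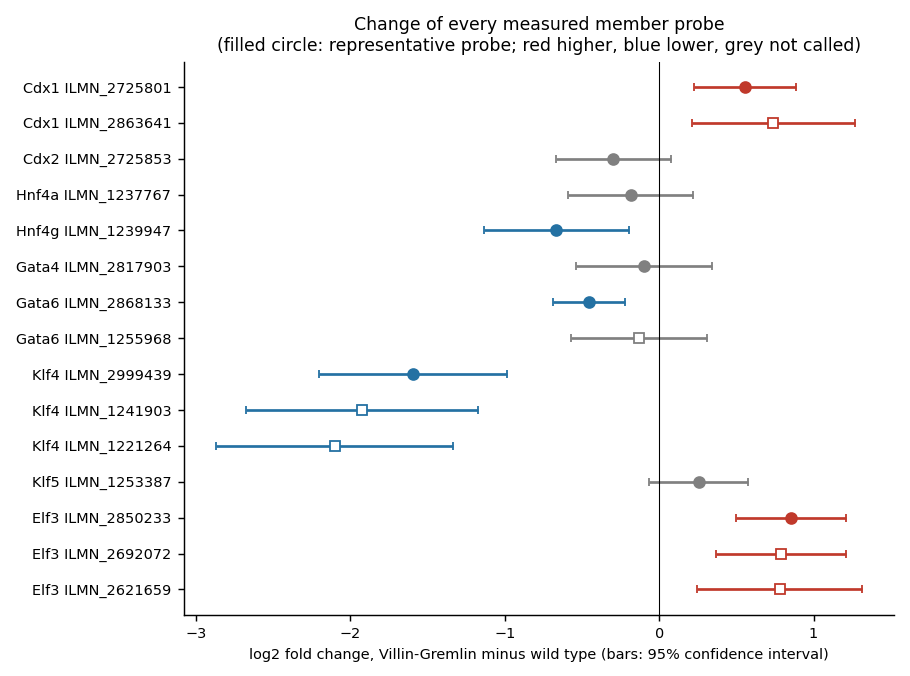
Change in log2 signal, Villin-Gremlin minus wild type, for the 15 measured probes of the 9 factors, with 95% confidence intervals, and called and uncalled probes in different colours. The Klf4 probes lie at -1.59 to -2.10 and the Elf3 probes at 0.78 to 0.85. The probes of Cdx2, Hnf4a, Gata4 and Klf5 and the Gata6 probe ILMN_1255968 have intervals that include 0.

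**Figure D4:**
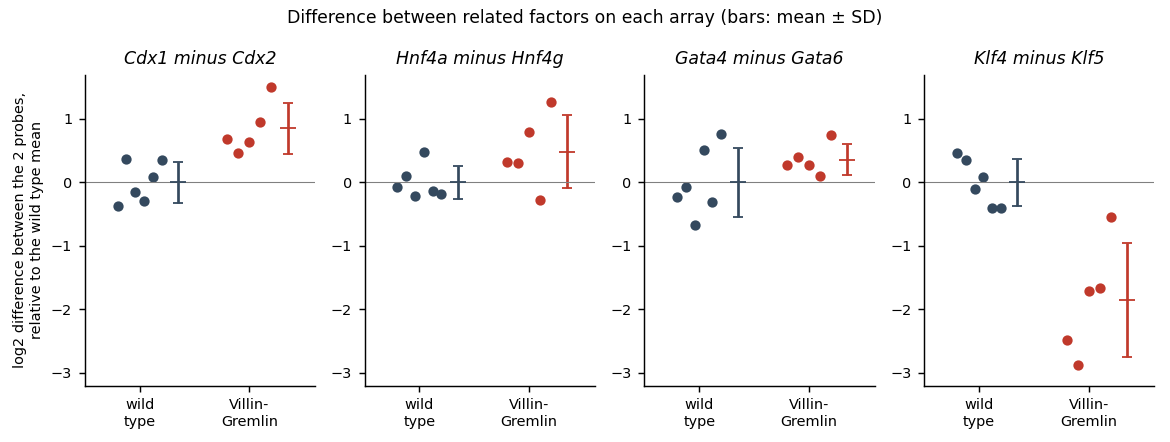
Difference in log2 signal between the representative probes of each pair of related factors on every array, by genotype, relative to the wild type mean, with bars at each group's mean ± SD. The genotypes separate for Cdx1 minus Cdx2 and for Klf4 minus Klf5, and overlap for Hnf4a minus Hnf4g and for Gata4 minus Gata6.

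For each called factor the genes whose signal followed it most closely over the 11 arrays were taken from the other 8233 measured genes. These correlations include the difference between the genotypes, so a gene that separates the groups in the same way ranks high. Klf4 was followed by D16Ertd472e (r = 0.96), Tsc22d4 (r = 0.96) and the ETS factor Elf4 (r = 0.96), with changes of -1.61, -1.21 and -0.89. Elf3 was followed by Agps, an enzyme of ether lipid synthesis (r = 0.97), Ddit4, a stress-induced inhibitor of mTORC1 (r = 0.95), and Pik3r1, a regulatory subunit of PI3 kinase (r = 0.95), which rose by 0.71, 2.05 and 0.52. Cdx1 was followed by Slc44a3 (r = 0.98), Rida (r = 0.97) and Kremen2, a receptor of the Wnt antagonist Dickkopf (r = 0.96), which rose by 0.87, 0.65 and 1.40. Gata6 was followed by Grina (r = 0.97), Pmp22 (r = 0.96) and Mcoln3, a cation channel of endosomes (r = 0.95), with changes of -0.81, -3.13 and -2.46. Hnf4g was followed by Pi4k2b, a phosphatidylinositol kinase (r = 0.95), Maf1, a repressor of RNA polymerase III (r = 0.95), and Mtmr14 (r = 0.95), with changes of -0.52 (limma, adjusted p = 0.0153), -0.46 (adjusted p = 0.0230) and -0.36, of which the last did not pass (adjusted p = 0.0806).

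Among 6 measured of 11 other Kruppel-like factors, 1 rose and 1 fell, with a median change of -0.28, and the called share of 33.3% is near the 32.5% of all genes. Klf7 averaged 9.91 ± 0.13 (SD, n = 5) in Villin-Gremlin and 9.20 ± 0.18 (SD, n = 6) in wild type villi, with no overlap and with all 3 of its probes higher, a change of 0.71 ± 0.12 (limma, adjusted p = 7.52e-04). Klf6 fell by 0.58 ± 0.19 on the log2 scale (limma, adjusted p = 0.0349), on 1 of its 2 measured probes, with overlapping groups, and lost its call on leaving out any 1 of Villin-Gremlin arrays 1 to 4 or wild type arrays 1 and 4 (changes of -0.58 to -0.46). Among 7 measured of 12 other ETS factors none rose and 3 fell, with a median of -0.29 and a called share of 42.9%. Ets1, an ETS factor abundant in lymphocytes, averaged 7.01 ± 0.43 (SD, n = 5) against 9.02 ± 0.33 (SD, n = 6) and fell by 2.01 on the log2 scale (limma, adjusted p = 2.62e-05). Elf4, also known from lymphocytes, fell by 0.89 ± 0.18 (limma, adjusted p = 0.00225), and Elf1, a broadly expressed factor, fell by 0.61 ± 0.15 (adjusted p = 0.00900).

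These ETS changes stood beside those of the lymphocyte markers, of which 9 of the 10 measured fell and none rose. Of all 8234 measured genes, 15.4% were lower in Villin-Gremlin villi. The median change of the lymphocyte markers was -2.16. The killer cell receptor subunit Klrd1 changed by -2.16, the T cell kinase Zap70 by -2.20, Cd3g, a chain of the T cell receptor complex, by -2.26, the granule protein Nkg7 by -2.16 and the chemokine Ccl5 by -2.02 (limma, adjusted p from 1.54e-05 to 5.12e-05). Cd7 changed by -1.84 and was detected on 2 of 5 Villin-Gremlin arrays. Cd8b1 was the member that did not pass through its brightest probe, at -0.02 ± 0.12, although 1 of its 2 measured probes fell. Of the 8 macrophage and dendritic cell markers 3 were measured and 2 fell, with changes of -2.10 for Fcer1g and -1.04 for Tyrobp, while Lyz2 was at -0.72 ± 0.40 and did not pass. Of the 13 mesenchymal and muscle markers 3 were measured and none was called, but all 3 had lower means in Villin-Gremlin villi with wide spreads, Dcn at -1.47 ± 0.73 and Acta2 at -1.56 ± 0.88, and Des with means of 5.61 and 6.62, and the mean over them was 5.23 to 7.94 on Villin-Gremlin and 6.70 to 10.51 on wild type arrays. Des was detected on 1 of 5 Villin-Gremlin and 4 of 6 wild type arrays, so its Villin-Gremlin mean rests mostly on signals at background. Of the 7 endothelial markers Lyve1 was measured, at 0.19 ± 0.35. The part of leukocyte or stromal content in the changes of Klf4, Ets1 and Elf4 was not tested, and in whole villi fewer cells of a type and less RNA per cell cannot be told apart.

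Among the 15 measured of 20 nuclear receptors of the enterocyte, 3 rose and 3 fell, with a median of -0.10, a called share of 40.0% beside 32.5% of all genes. Nr5a2, an activator of crypt and steroid synthesis genes, rose by 1.23 ± 0.21 (limma, adjusted p = 7.18e-04), and Nr1h4, the bile acid receptor FXR, rose by 0.92 ± 0.15 (limma, adjusted p = 4.66e-04), both with no overlap between the groups. Ppara, a sensor of fatty acids, rose by 0.91 ± 0.33 with a probe that was detected on 4 of 6 wild type arrays and sat at the threshold (limma, adjusted p = 0.04995), and its call was lost on leaving out any 1 of 8 of the 11 arrays (Villin-Gremlin 1, 2, 4 and 5 and wild type 1, 2, 3 and 6), with changes of 0.74 to 1.01. The genes that fell were Thra, a thyroid hormone receptor detected on 4 of 5 Villin-Gremlin arrays, by 0.90 ± 0.25, Rxra, the shared partner of many nuclear receptors, by 0.63 ± 0.18, and Nr1h3, the oxysterol receptor LXR alpha, by 0.61 ± 0.18 on the log2 scale (limma, adjusted p = 0.0147, 0.0176 and 0.0227). Of the HNF1 and FOXA factors, 2 of 5 were measured, and Foxa3 fell by 0.48 ± 0.10 (limma, adjusted p = 0.00349), with values of 9.94 to 10.17 in Villin-Gremlin and 10.41 to 10.64 in wild type villi.

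Among 11 measured of 18 other enterocyte and regional factors, 1 was called, or 9.09% beside 32.5% of all genes. That gene, Maf, passed the detection filter through wild type arrays alone, so a fall was the only change it could show. Maf, a bZIP factor of the enterocyte's differentiation programme, was not above background on any Villin-Gremlin array and was detected on all 6 wild type arrays, at least 1.56-fold higher in wild type villi (limma, adjusted p = 4.09e-04). That bound sets the wild type mean against, on each Villin-Gremlin array, the lowest signal of a probe above background or the Maf signal, whichever was higher. Of 16 gastric and squamous genes that lie outside the normal intestinal programme, 1 was measured and 15 were not, among them Sox2, Trp63, Muc5ac, Atp4b and Krt5. The measured gene was Gkn3, a gastrokine, at 7.84 ± 1.41 (SD, n = 5) in Villin-Gremlin and 6.27 ± 0.42 (SD, n = 6) in wild type villi, with a change of 1.57 ± 0.50 (limma, adjusted p = 0.0309) and overlapping groups. It was detected on 3 of 6 wild type arrays, so the change rests in part on values at background. Without Villin-Gremlin array 5, at 10.27 the highest, the change was 0.97 (adjusted p = 0.0104), and without wild type array 1, 2 or 4 it was 1.49 to 1.51 and not called.

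The genes that these factors are known to control were described by counts and medians, beside 17.2% higher, 15.4% lower and a median change of 0.00 over all 8234 genes. These lists, like the others here, were drawn from general knowledge with earlier results of these data known. Their counts are therefore descriptions and not tests. Of 19 measured of 22 HNF4 targets, 12 fell, none rose, and the median was -0.54. Maf, which passed the detection filter through wild type arrays alone, is among the 12. Slc6a19, a neutral amino acid transporter, fell by 1.59 ± 0.14 on the log2 scale, Dpp4, a brush border peptidase, by 1.39 ± 0.14, Slc5a1, the sodium-glucose transporter, by 0.93 ± 0.14, and Npc1l1, the cholesterol transporter, by 1.28 ± 0.19 (limma, adjusted p = 7.90e-06, 2.21e-05, 2.63e-04 and 3.16e-04). The apolipoproteins Apoa4 and Apoa1 were at -0.13 ± 0.12 and -0.06 ± 0.10 and did not pass, but their group means of 14.77 to 14.90 lie close to the highest signal on any array, 15.22, and compression of differences at that brightness was not tested.

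Of 18 measured of 20 CDX targets, 7 fell, none rose, and the median was -0.38. Clca4a fell by 2.49 ± 0.31 on the log2 scale, Lct, lactase, by 2.06 ± 0.30, Mep1a, a meprin subunit of the brush border, by 1.13 ± 0.18, Cdhr2, a microvillus cadherin, by 0.54 ± 0.13, and Krt20, a keratin of differentiated enterocytes, by 0.47 ± 0.11 (limma, adjusted p from 9.84e-05 to 0.00666). Cdh17, the liver-intestine cadherin, and Cdhr5, the partner of Cdhr2, were at -0.06 ± 0.15 and 0.03 ± 0.10. These falls stood beside those of the absorptive enterocyte markers, of which 6 of the 10 measured fell and none rose, with a median of -0.61, among them Anpep, aminopeptidase N, at -0.88 ± 0.17. Of the measured absorptive markers 60% were called, beside 32.5% of all genes. The lists share genes, Lct among them, and were not chosen independently.

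Genes of the proximal small intestine, listed from general knowledge as maintained by GATA4, moved in both directions. Of 11 measured of 12, 4 rose and 6 fell, with a median of -0.39 while the mean over the list was 0.15. The iron transporter Slc11a2 rose by 3.43 ± 0.45 (limma, adjusted p = 1.33e-04), with 2 of its 3 measured probes called. Cybrd1, the duodenal ferrireductase, was detected on all 5 Villin-Gremlin arrays and on no wild type array, at least 6.67-fold higher (limma, adjusted p = 2.95e-04). Cybrd1 passed the detection filter through Villin-Gremlin arrays alone, so a rise was the only change it could show. The iron exporter Slc40a1 and Adh1, named to complete the genes that rose, changed by 3.14 ± 0.58 and 0.69 ± 0.22 (limma, adjusted p = 0.00137 and 0.0270). The part of iron handling in these rises was not tested. Cyp2b10, a drug-metabolising cytochrome, fell by 3.37 ± 0.30, and Apoc3, a chylomicron apolipoprotein, by 0.39 ± 0.12 on the log2 scale (limma, adjusted p = 8.24e-06 and 0.0249), the latter lost without Villin-Gremlin array 3 (-0.32) or 5 (-0.35). Of 7 measured of 10 genes of the distal small intestine, 1 rose and 5 fell, with a median of -1.31. Cubn, which takes up vitamin B12 bound to intrinsic factor, changed by -3.79 ± 0.50, its partner Amn by -1.31 ± 0.24, the nucleoside transporter Slc28a2 by -3.65 ± 0.53 and Slc51b, a subunit of the basolateral bile acid transporter, by -0.82 ± 0.17 (limma, adjusted p from 1.42e-04 to 0.00281), while its other subunit Slc51a was at -0.04 ± 0.15 and Nr1h4 was the gene that rose. Cubn was detected on 2 of 5 Villin-Gremlin arrays, so its value there rests mostly on signals at background and the size of its change is uncertain. Genes of both lists were among those that fell, and Gata4 itself did not pass the test.

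Of 12 measured of 14 targets of KLF4 and KLF5, 3 rose and 1 fell, with a median of 0.11. Their called share of 33.3% is near the 32.5% of all genes. Cdkn1a, the cell cycle inhibitor p21 that KLF4 is known to activate, fell by 0.88 ± 0.13 on the log2 scale on each of 3 probes (limma, adjusted p = 2.19e-04). The cell cycle genes Ccnd1 and Cdk1 rose by 1.69 ± 0.34 and 1.49 ± 0.29 (limma, adjusted p = 0.00214 and 0.00175), and Krt19, a keratin of simple epithelia, rose by 2.29 ± 0.21 (adjusted p = 8.96e-06). Cdk1 was detected on 4 of 6 wild type arrays. Ctnnb1 and Krt8 were at 0.08 ± 0.12 and 0.04 ± 0.10. These values stood beside those of crypt stem cell markers, of which 7 of 10 were measured. Lgr5, Ascl2 and Smoc2 were not measured. Of the 7 measured, 3 rose, Prom1 by 1.98, Lrig1 by 1.28 and Sox9 by 1.27. Axin2, a Wnt target, was the 1 that fell, by 1.84 on the log2 scale. Prom1 was detected on 4 of 6 wild type arrays, and Rnf43 and Olfm4, at -0.32 ± 0.23 and -0.01 ± 0.78, did not pass. Of the measured crypt stem cell markers 57.1% were called, beside 32.5% of all genes. The part of crypt cells in the cell cycle values was not tested.

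Markers of goblet cells, whose maturation in the colon needs KLF4, moved in both directions. All 10 were measured, 3 rose and 2 fell, with a median of -0.13 and a called share of 50%, beside 32.5% of all genes. Spink4, a secreted protein of goblet cells, rose by 1.42 ± 0.15 (limma, adjusted p = 2.45e-05), Agr2, a folding enzyme for mucins, by 0.57 ± 0.17 and Klk1, a kallikrein, by 0.43 ± 0.15, while Clca1, a mucus metalloprotease, fell by 0.59 ± 0.18 and Sytl2, a granule protein, by 0.58 ± 0.15 on the log2 scale. Zg16 and Fcgbp, which bind mucus, were at -0.01 ± 0.10 and -0.06 ± 0.46. The mean over the 10 markers was 11.75 to 12.04 on Villin-Gremlin and 11.76 to 12.06 on wild type arrays, a mean over genes that moved in opposite directions. The call of Agr2 was lost on leaving out Villin-Gremlin array 1, 3 or 4 or wild type array 2 (changes of 0.49 to 0.53), that of Clca1 without Villin-Gremlin array 1 (-0.55) or 3 (-0.49), and that of Klk1 on leaving out any 1 array other than Villin-Gremlin 3 or wild type 6 (changes of 0.35 to 0.46).

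Of 7 measured of 8 ELF3 targets, 1 rose and 2 fell, with a median of -0.06. Tgfbr2, a TGF-beta receptor that ELF3 is known to activate in the mouse intestine, rose by 1.53 ± 0.25 (limma, adjusted p = 5.06e-04). Its lowest Villin-Gremlin value lay above its highest wild type value. Groups without overlap, in either direction, were found for 20.5% of all genes. The claudins Cldn4 and Cldn7, tight junction and lateral membrane proteins, fell by 1.75 ± 0.35 and 0.50 ± 0.10 on the log2 scale (limma, adjusted p = 0.00208 and 0.00270). Krt8 and Epcam, an epithelial adhesion molecule, were at 0.04 ± 0.10 and -0.06 ± 0.24.

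Of the BMP targets, 4 of 12 were measured and all 4 fell, with a median of -2.37, beside 15.4% of all genes lower. Smad6 among them passed the detection filter through wild type arrays alone, so a fall was the only change it could show. Id1 changed by -2.57 ± 0.25, Id2 by -2.94 ± 0.20 and Id3 by -2.17 ± 0.15 (limma, adjusted p from 8.30e-07 to 1.64e-05), and Smad6, an inhibitor of BMP signalling, was not above background on any Villin-Gremlin array, at least 2.80-fold lower (adjusted p = 8.30e-07). Of 4 measured of 8 Paneth cell markers none was called, with Lyz1 at 0.23 ± 0.31 and Pla2g2a at 0.51 ± 0.41. Of 9 measured of 10 enteroendocrine markers, 3 rose and 2 fell, with a median of 0.69. Their called share was 55.6%, beside 32.5% of all genes. Tac1, the substance P gene, averaged 7.47 ± 0.39 (SD, n = 5) in Villin-Gremlin and 5.47 ± 0.32 (SD, n = 6) in wild type villi, where it was detected on 1 of 6 arrays (limma, adjusted p = 1.91e-05). Gcg, the proglucagon gene, was at 1.41 ± 0.28, Reg4, detected on 3 of 6 wild type arrays, at 1.07 ± 0.31, secretin, Sct, at -1.15 ± 0.19 and neurotensin, Nts, at -1.37 ± 0.29, while Gip and Cck were at -0.33 ± 0.21 and -0.13 ± 0.35 and did not pass.

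**Figure D5:**
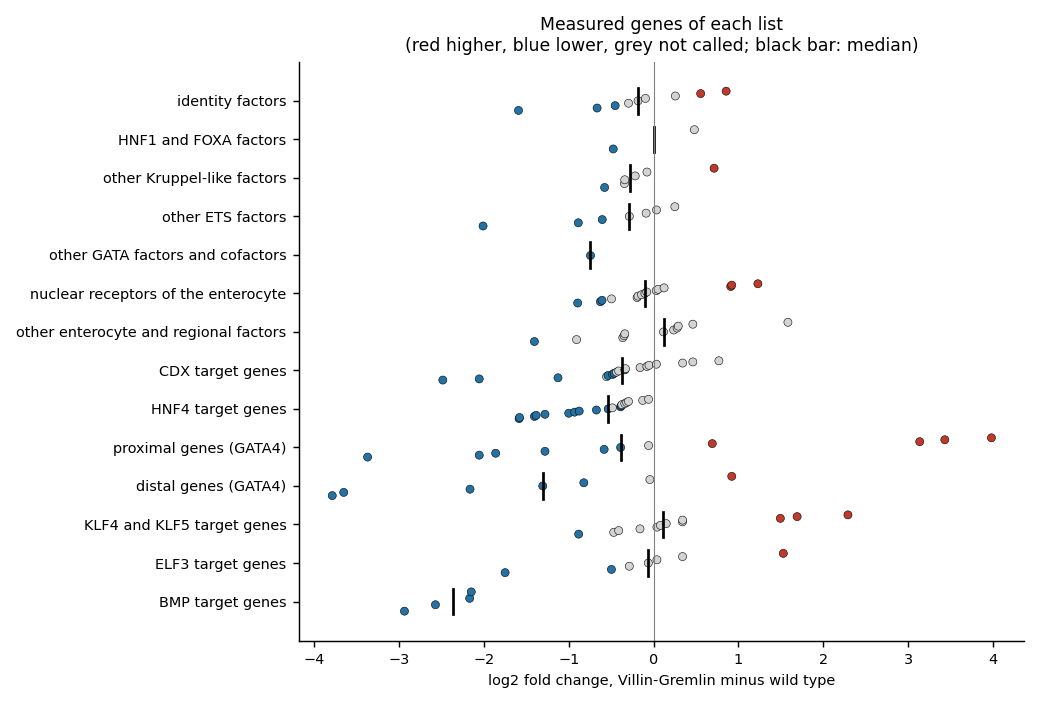
Change in log2 signal, Villin-Gremlin minus wild type, of every measured gene in each gene list, 1 row per list, with called genes in red (higher) or blue (lower), uncalled genes in grey and the list's median as a black bar. The 9 factors spread on both sides of 0, the 19 HNF4 targets all lie below 0 with a median of -0.54, and the 4 BMP targets lie between -2.94 and -2.15.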

How the data were processed

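Total RNA from isolated villi was labelled as biotinylated cRNA and hybridised to Illumina bead arrays, per the labels' protocols. The deposited table gave a non-normalised intensity and a detection p-value per probe and array, per the file headers. A second deposited table held the authors' log2 values, for which the sources used here give no processing steps. Each of its 11 columns correlated best with its own array's signal (r from 0.983 to 0.990 over measured probes), and the columns' medians were 5.04 to 5.13. It served as an alternative.

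Intensities were background-corrected by normexp from the detection p-values, with an offset of 16, log2-transformed and quantile-normalised (neqc in limma 3.58.1, R 4.3.3). Probes with a detection p under 0.01 on 5 or more arrays were fitted with lmFit and eBayes, adjusted by Benjamini-Hochberg over 14203 probes and called at an adjusted p under 0.05. The fit was tested on simulated data with known changes. Probes took the platform annotation's symbol: 34885 had 1 symbol, 18 several and 10378 none. Pairs of related factors and pairs of probes were compared by two-sided exact permutation tests over 462 splits.

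All members are named with every probe. Other factors are named where called, and other lists give up to 5 called genes with the smallest p and up to 2 measured genes with the smallest change. Exceptions are named where they occur. The members and the 23 lists, whose targets come from general knowledge, were chosen with earlier results of these data known. The probe-pair test, median scaling over all probes and the fits of other named genes without single arrays were added after seeing the data. Alternatives changed background, offset, scaling, filter, probe summary, weights, variance prior, blocks and arrays. The number of arrays limits the precision. The design text gives 6 mice in each group, and 5 Villin-Gremlin arrays were analysed here.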

Additional observations from a re-analysis of the deposited data

Results flagged for a closer look

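Each measured probe of the 9 factors was examined in each group for an array that lay far from the others, which made 30 groups for 15 probes. One stood out: the Gata6 probe ILMN_2868133 was 12.75 on wild type array 6, below the nearest wild type value of 13.01, a gap of 0.671 of the group's range against a critical value of 0.625. Chance alone marks about 1 in 20 such groups. The value still lay above every Villin-Gremlin array, and without this array Gata6 was called as before.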

How the results depend on the processing

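Klf4 and Elf3 kept their direction and their call under all 25 settings tried, Klf4 between -1.88 and -1.44 and Elf3 between 0.72 and 0.93. The differences of Cdx1 from Cdx2 and of Klf4 from Klf5 also kept their calls under all settings run for them. The number of called factors fell from 5 to 3 without Villin-Gremlin array 5 and wild type array 1 (Cdx1 at 0.40, Hnf4g at -0.53) and to 3 with median scaling over all probes, chosen after seeing the data (Cdx1 at 0.43, Hnf4g at -0.71). That scaling moved the median of all measured probes to -0.08. Leaving out 1 array at a time gave 4 to 5 called factors and 3689 to 4287 called probes. Hnf4g was also lost with no detection filter, at -0.67 (limma, adjusted p = 0.0830), and with array weights, at -0.50 (adjusted p = 0.0690), and ranged from -0.78 to -0.53 over the arrays left out, where 5 of 11 ended the call. With no background correction it kept its call at -0.38, and the difference of Hnf4a from Hnf4g was 0.19. Gata6 was lost as the mean of its probes, at -0.29. Gata4, never called, changed sign with a replicate block on the title numbers, at 0.0026, and ranged from -0.22 to 0.0043 over the arrays left out. The difference of Hnf4a from Hnf4g ranged from 0.29 to 0.67 over the arrays left out. The fit of 1 representative probe per gene called 2792 genes and the mean of probes 2836, against 4378 probes, because 8234 features were tested in place of 14203. Of 66 other named genes that were called, 59 kept the call without any 1 array. Without Villin-Gremlin array 5 and wild type array 1, Gata5 (-0.57) and Nr1h3 (-0.46) also lost theirs. The causes of the other losses were not tested. The weaker probes Cdx1 ILMN_2863641 and Elf3 ILMN_2621659 lost their calls on leaving out 6 and 4 of the 11 arrays.

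Same-numbered arrays did not clearly deviate together (correlations of -0.21 to 0.12 for the title numbers and -0.16 to 0.12 for the description numbers). With so few pairs, these correlations cannot show whether the numbers pair the samples. With the replicate block, 3403 probes were called by title numbers and 3632 by description numbers, with 5 called factors in each. Dim probes, such as those of Hnf4g, Gata4 and the second of Gata6, limit what can be seen of small changes.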

Other observations

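Pdx1, the homeobox factor of the duodenum, was chosen after its values were seen. It read 5.56 on wild type array 1, while the other wild type arrays lay between 9.58 and 10.15 and the Villin-Gremlin arrays between 9.50 and 11.54, and its change of 1.58 ± 0.74 did not pass the test (limma, adjusted p = 0.123). Wild type array 1 is one of the arrays that lay apart. Cybrd1, another gene of the duodenum, read 10.63 and 10.71 on Villin-Gremlin arrays 3 and 5, while the other Villin-Gremlin arrays lay between 7.18 and 7.94. Hnf4g was lowest on the same arrays, at 6.94 and 6.91. This match between Cybrd1 and Hnf4g was likewise picked out after the values were seen, and was not tested. The position along the intestine from which the villi of each array came is not given in the labels, and its part in these values was not tested.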
